A study of Homo sapiens with 8 samples.

Results

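Serine synthesis and folate one-carbon metabolism were followed through 9 genes chosen by name: PHGDH, PSAT1, PSPH, SHMT1, SHMT2, MTHFD1, MTHFD2, MTHFD1L and ALDH1L2. All 9 were among the 23393 genes of the read-count table, and all 9 passed the expression filter that left 15262 genes for testing. PHGDH, PSAT1 and PSPH make serine from the glycolytic intermediate 3-phosphoglycerate in successive steps. The SHMT enzymes then split serine into glycine and a one-carbon unit bound to tetrahydrofolate. These units are processed by MTHFD1 in the cytosol and by MTHFD2, MTHFD1L and ALDH1L2 in mitochondria, and they feed purine, thymidylate and methionine synthesis. In proliferating tumor cells the mitochondrial branch is known to release formate for use in the cytosol, and several of these genes are known targets of the stress-induced transcription factor ATF4.

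RNA-seq libraries were made from parental MDA-MB-231 cells, a human triple-negative breast cancer line, and from its ρ0 derivative, clone 27, in which mitochondrial DNA was depleted with ethidium bromide. Each line was cultured in full medium (control) or starved of arginine for 48 h, giving 4 groups of 2 libraries. The labels describe the starvation as arginine deiminase, an arginine-degrading enzyme, added at 0.3 µg/mL to full medium, whereas the study's text describes arginine-starved medium. The ρ0 line is a single clone kept under ethidium bromide with added uridine and sodium pyruvate, additions not listed for parental cells, so these culture conditions, clonal origin and loss of mitochondrial DNA cannot be told apart. Libraries held between 25259503 and 31022155 counts. Nothing in the labels says that the 2 libraries of a group came from separate cultures, so p-values measure only the spread between libraries. That spread was estimated over all 4 groups together, so a standard error or p-value does not give the spread of the compared libraries alone.

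The labels were compared with marker genes. VIM, a mesenchymal filament gene abundant in MDA-MB-231 cells, stood at 1697 and 1786 CPM (read counts scaled to library size) in the parental control libraries and at 2932 and 3635 CPM in the ρ0 control libraries. The hormone receptor genes ESR1 and PGR were at most 0.180 CPM in all 8 libraries. The epithelial adhesion gene CDH1 was at most 0.0709 CPM in parental libraries but at 15.9 and 14.1 CPM in ρ0 control libraries, and EPCAM was at most 0.521 CPM in parental libraries against 23.7 and 22.4 CPM. All 6 tested genes of a list of 8 luminal and epithelial markers were higher in ρ0 than in parental control cells, as were 30.5% of all tested genes. CDH1 and TFF1 passed the expression filter only through the ρ0 libraries, where they were high, so the filter itself set their direction in this count. Whether the ρ0 libraries derive from the parental line, as labelled, was not tested, which bears on every comparison between the lines. No transcript of the mitochondrial genome could be used to check the ρ0 state, since the symbols of its 13 protein-coding genes matched no row used here.

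The ρ0 control libraries stood apart from each other. Their biological coefficient of variation was 25.1%, against 5.16% between parental control, 2.29% between parental starved and 1.84% between ρ0 starved libraries. Since the model shared its spread over the groups, parental tests also carry this ρ0 control spread, and ρ0 tests draw on the closer pairs. The PSAT1 starvation change had a standard error of 0.32 in both lines, although parental PSAT1 replicates differed 1.04-fold in control and 1.05-fold in starved cells. Of the 9 genes, 8 were higher in ρ0 control replicate 2 than in replicate 1, with PSAT1 2.27-fold, MTHFD2 1.85-fold and MTHFD1L 1.65-fold apart. Summed CPM of 14 stress-response genes was also higher in replicate 2 (1651) than in replicate 1 (1051). Summed CPM of 17 proliferation genes was 4505 in replicate 1 and 5040 in replicate 2, but 9 of them were higher and 8 lower in replicate 2: replication genes such as MCM3 (318 and 545 CPM) were higher and mitotic genes such as CCNB1 (408 and 177 CPM) were lower, both named after their values were seen. With either library left out, a larger share of all genes passed the test in each of the 5 comparisons, so calls gained in that way are read beside it: 80.1% of genes against 65.9% in parental starvation without replicate 2, for example.

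The sequences upstream of 4 genes are shown because PSAT1 and MTHFD2 rose in both lines, PHGDH changed in opposite directions in the lines, and MTHFD1L was the only gene of the set whose RefSeq promoter window held the core of the C/EBP-ATF composite element, a site type known to bind ATF4. Each run is the 250 bases before an annotated start, 5′ to 3′ on the gene's strand, from RefSeq on GRCh38.p14. The counts carry no coordinates, and the submitters' processing notes name hg19, so the sequences serve as context only. Capitals mark searched motifs.
PHGDH: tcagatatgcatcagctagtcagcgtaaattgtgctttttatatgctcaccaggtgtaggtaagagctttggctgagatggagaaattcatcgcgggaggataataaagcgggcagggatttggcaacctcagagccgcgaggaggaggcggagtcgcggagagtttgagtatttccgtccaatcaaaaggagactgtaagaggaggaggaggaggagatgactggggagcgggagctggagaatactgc
PSAT1: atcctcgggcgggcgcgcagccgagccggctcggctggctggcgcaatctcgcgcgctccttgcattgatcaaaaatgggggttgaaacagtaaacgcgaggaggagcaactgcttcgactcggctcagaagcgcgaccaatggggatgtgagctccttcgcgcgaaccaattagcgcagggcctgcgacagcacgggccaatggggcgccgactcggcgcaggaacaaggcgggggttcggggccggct
MTHFD2: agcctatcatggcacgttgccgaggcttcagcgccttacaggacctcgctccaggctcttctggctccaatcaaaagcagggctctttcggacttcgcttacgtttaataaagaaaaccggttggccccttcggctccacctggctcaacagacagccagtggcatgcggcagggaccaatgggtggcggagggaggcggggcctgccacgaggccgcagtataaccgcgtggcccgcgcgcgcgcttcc
MTHFD1L: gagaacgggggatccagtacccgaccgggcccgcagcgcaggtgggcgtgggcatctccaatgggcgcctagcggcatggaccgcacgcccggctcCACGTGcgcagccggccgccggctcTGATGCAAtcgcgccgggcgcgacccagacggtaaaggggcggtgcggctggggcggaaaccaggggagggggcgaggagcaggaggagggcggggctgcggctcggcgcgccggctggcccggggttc

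The runs lie at chr1:119711684-119711933 (PHGDH), chr9:78296875-78297124 (PSAT1), chr2:74198365-74198614 (MTHFD2) and chr6:150866236-150866485 (MTHFD1L), all on the plus strand. Of the 9 genes, 6 matched a RefSeq promoter window of 250 bases before to 50 bases after the start. PSPH, SHMT2 and ALDH1L2 did not match one. Among these 6, the composite core TGATGNAA, searched on both strands, was found in windows of MTHFD1L alone (3 of its 4 annotated starts, whose windows overlap and share the match). It occurred in 3.62% of 35116 windows in all. Of the stress-response genes searched in the same way, ASNS and CHAC1 each had a window with the core. ATF4, TRIB3, DDIT3 and SESN2 had none, so its absence from a window says little about a gene. The E-box CACGTG occurred in windows of MTHFD1 and MTHFD1L and in 7.26% of all windows, and the cAMP response element TGACGTCA in windows of no member and in 1.85% of all. None of the motifs overlapped another. A match describes the letters in these windows and not a bound site.

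Levels were compared between genes per length, as CPM per kb of the longest annotated transcript. In parental control cells SHMT2, the mitochondrial serine hydroxymethyltransferase, had the highest level per length, at 129 and 136 CPM per kb. PSAT1 followed at 35.6 and 36.9 CPM per kb, and then MTHFD1 (27.1 and 26.4), PHGDH (24.7 and 25.6), MTHFD1L (21.1 and 20.5), PSPH (13.7 and 14.5), MTHFD2 (12.1 and 11.7), SHMT1 (10.2 and 9.19) and ALDH1L2 (0.0516 and 0.0322). No 2 neighbours in this order overlapped between libraries, although MTHFD1 and PHGDH lay close. PSAT1 took the first place after starvation, at 107 and 112 CPM per kb in parental cells and 222 and 228 CPM per kb in ρ0 cells, above SHMT2 at 95.1 and 94.3 and at 59.6 and 57.3 CPM per kb. In ρ0 control cells the 2 genes overlapped, with PSAT1 at 32.3 and 73.3 and SHMT2 at 40.2 and 54.0 CPM per kb. The order depended on the length used. With the median transcript PSAT1 moved from place 2 to 5 in parental control and from 1 to 4 in ρ0 control cells, where its group mean was 64.2 CPM per kb against 192 for SHMT2. Per kb of the median transcript group means were 387 CPM for SHMT2 and 134 CPM for PSAT1 in parental starved cells, so that SHMT2 stayed first there, and 239 and 274 CPM in ρ0 starved cells, where PSAT1 was still first.

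**Figure D1:**
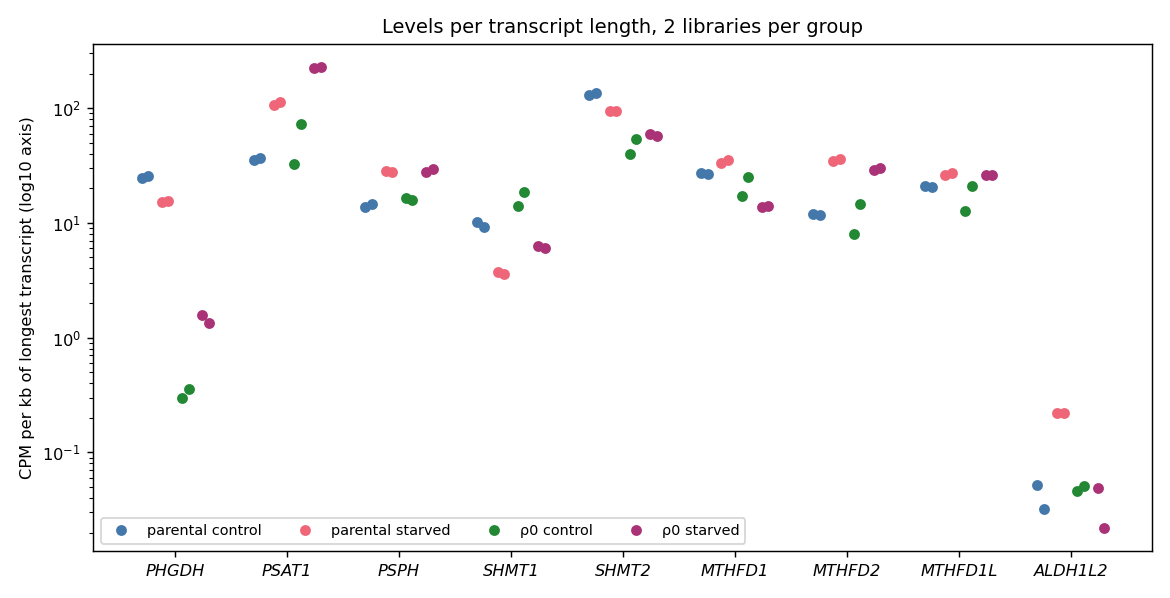
CPM per kb of the longest annotated transcript (log10 axis) for each of the 9 genes, with 1 point per library and 2 libraries in each of 4 groups. PSAT1 lay above SHMT2 in starved cells of both lines (in parental cells not with the median transcript length), PHGDH was at most 1.57 CPM per kb in ρ0 cells, and ALDH1L2 was the lowest gene in every library.

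The first comparison asked how arginine starvation changed these genes in parental cells. Relative to control, PSAT1, PSPH, MTHFD2 and ALDH1L2 rose, PHGDH, SHMT1 and SHMT2 fell, and MTHFD1 and MTHFD1L did not pass the test. By edgeR's quasi-likelihood test with Benjamini-Hochberg adjustment over all 15262 genes, 4 of 9 were called higher and 3 of 9 lower, while 30.4% of all tested genes were higher and 35.5% lower. Past a log2 change of 1, 3 were higher (background 12.7%) and 1 was lower (background 22.1%). The median log2 change was 0.36 over the 9 genes and -0.07 over all tested genes.

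In ρ0 cells the same question gave 5 rises (PHGDH, PSAT1, PSPH, MTHFD2 and MTHFD1L) and 2 falls (SHMT1 and MTHFD1). Of all tested genes, 19.2% were higher and 22.1% lower in starved ρ0 cells. Past a log2 change of 1, 3 of the 9 genes were higher and 1 was lower, beside backgrounds of 4.22% and 8.19%. The median log2 change was 0.63 over the 9 genes and -0.02 over all tested genes. Whether the responses differed between the lines was tested by the interaction, ρ0 minus parental. It was positive for PHGDH and SHMT2 and negative for MTHFD1 and ALDH1L2, beside 21.6% and 18.8% of all genes, and it did not pass for the other 5. Both starvation responses are in bulk RNA, in which fewer cells of a type and less RNA per cell cannot be told apart.

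**Figure D2:**
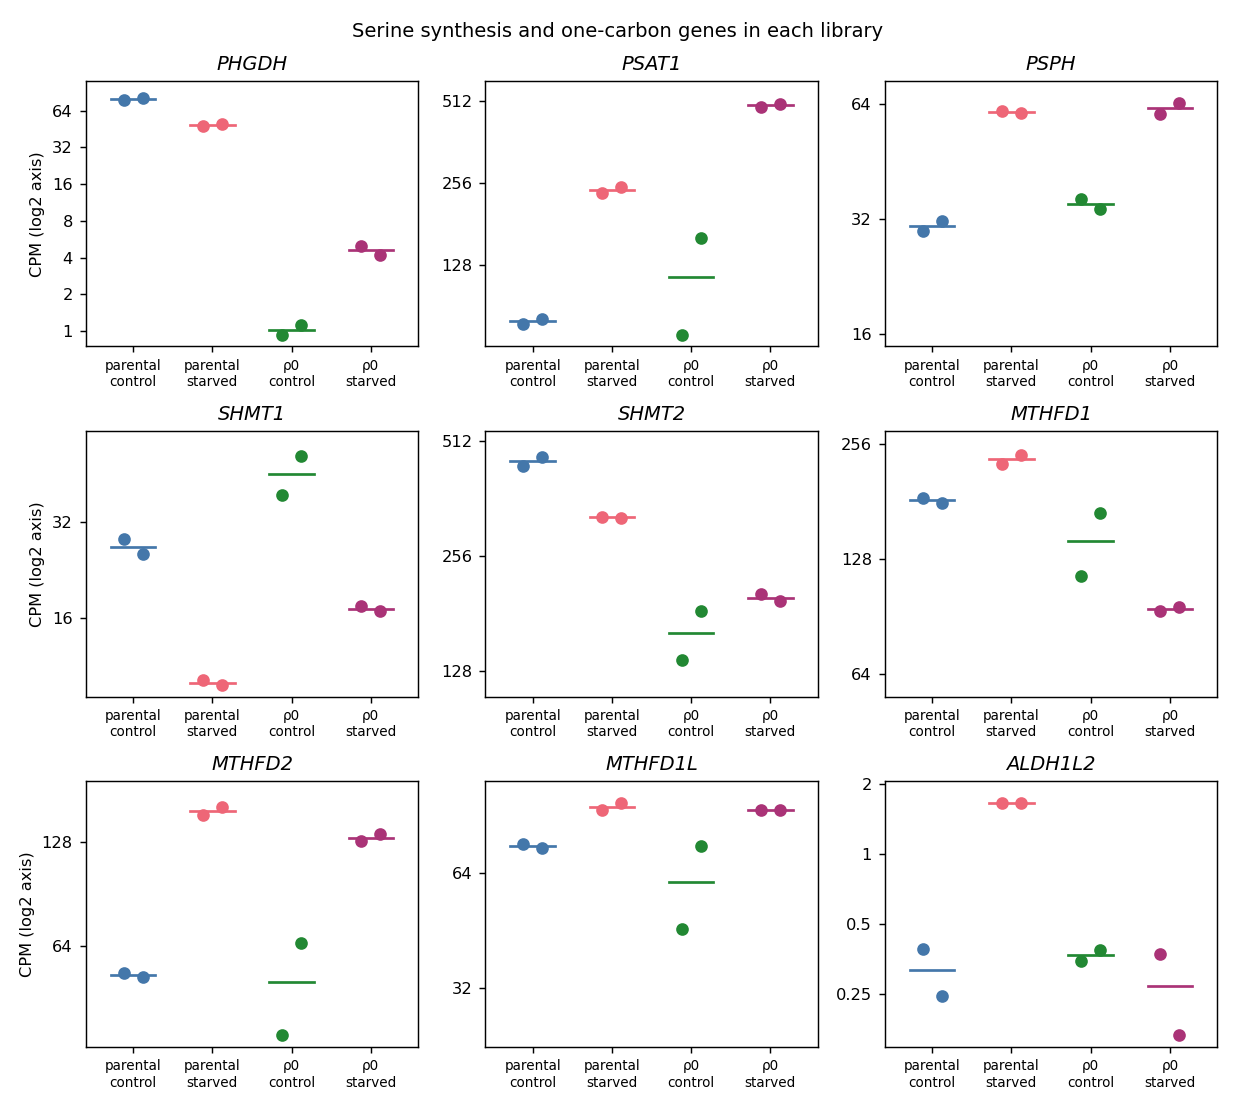
CPM of each gene (log2 axis, scaled to each panel) in the 2 libraries of each group, with a line at the group mean. PSAT1, PSPH and MTHFD2 were higher in starved libraries of both lines, SHMT1 was lower in them, and PHGDH fell in parental but rose in ρ0 cells.

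PHGDH, the dehydrogenase that commits 3-phosphoglycerate to serine synthesis, had the widest range. It stood at 78.4 and 81.3 CPM in parental control libraries and at 48.0 and 49.4 CPM in parental starved libraries. In ρ0 cells it stood at 0.937 and 1.13 CPM in control libraries, which is 27 and 35 reads, and at 5.0 and 4.22 CPM (148 and 102 reads) in starved libraries. The groups did not overlap in any comparison. Starvation lowered PHGDH in parental cells 1.64-fold (log2 fold change -0.71 ± 0.10 standard error, SE, adjusted p = 6.8e-04, edgeR) and raised it in ρ0 cells 4.46-fold (2.16 ± 0.15, adjusted p = 1.5e-04). The responses differed by 2.87 ± 0.19 on the log2 scale (adjusted p = 1.67e-04). Even so, starved ρ0 cells held 10.5-fold less PHGDH message than starved parental cells, and the gap between the control groups was 76.9-fold (log2 -6.27 ± 0.15, adjusted p = 3.33e-07).

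PSAT1, the aminotransferase of the next step, rose to the highest CPM of the serine synthesis genes. Parental libraries gave 77.9 and 80.7 CPM in control and 235 and 246 CPM in starved cells. The ρ0 libraries gave 70.7 and 160 CPM in control and 486 and 499 CPM in starved cells. Starved libraries lay above control libraries in both lines without overlap. The rise was 3.03-fold in parental cells (log2 1.60 ± 0.32, adjusted p = 0.00299) and 4.26-fold in ρ0 cells (2.09 ± 0.32, adjusted p = 0.00219; both edgeR). The ρ0 log2 change was 1.62 without ρ0 control replicate 1 and 2.81 without replicate 2. The difference of 0.49 ± 0.44 between the responses did not pass (adjusted p = 0.405). That value hung on the ρ0 control libraries, since it was 0.022 (adjusted p = 0.791) without replicate 1 and 1.17 (adjusted p = 1.29e-10) without replicate 2.

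PSPH, the phosphatase that releases serine, was the steadiest of these genes between replicates of the ρ0 control. It stood at 29.7 and 31.6 CPM in parental control libraries and 61.3 and 60.8 CPM in starved ones. In ρ0 libraries it stood at 36.1 and 34.1 CPM in control and 60.5 and 64.4 CPM in starved cells. Starvation raised it 1.99-fold in parental cells (log2 0.99 ± 0.09, adjusted p = 5.21e-05) and 1.78-fold in ρ0 cells (0.83 ± 0.08, adjusted p = 4.36e-04, edgeR). The difference between the responses was -0.16 ± 0.12 (adjusted p = 0.312), and -0.23 (adjusted p = 0.037) without ρ0 control replicate 2. In starved cells the lines overlapped and differed by 0.03 ± 0.08 (adjusted p = 0.751).

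In parental cells PHGDH thus fell while PSAT1 and PSPH rose, whereas all 3 serine synthesis genes rose in ρ0 cells. Within a library, where scaling cancels, the ratio of PSAT1 to PHGDH counts was 0.993 in both parental control libraries and 4.89 and 4.97 in parental starved libraries. In ρ0 cells it was 75.5 and 142 in control and 97.2 and 118 in starved libraries, which overlap. Summed over the 3 genes, CPM was 190 ± 5.36 (SD, n = 2) in parental control, 350 ± 8.52 in parental starved, 152 ± 62.1 in ρ0 control and 560 ± 11.1 in ρ0 starved cells, and most of each starved sum came from PSAT1.

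**Figure D3:**
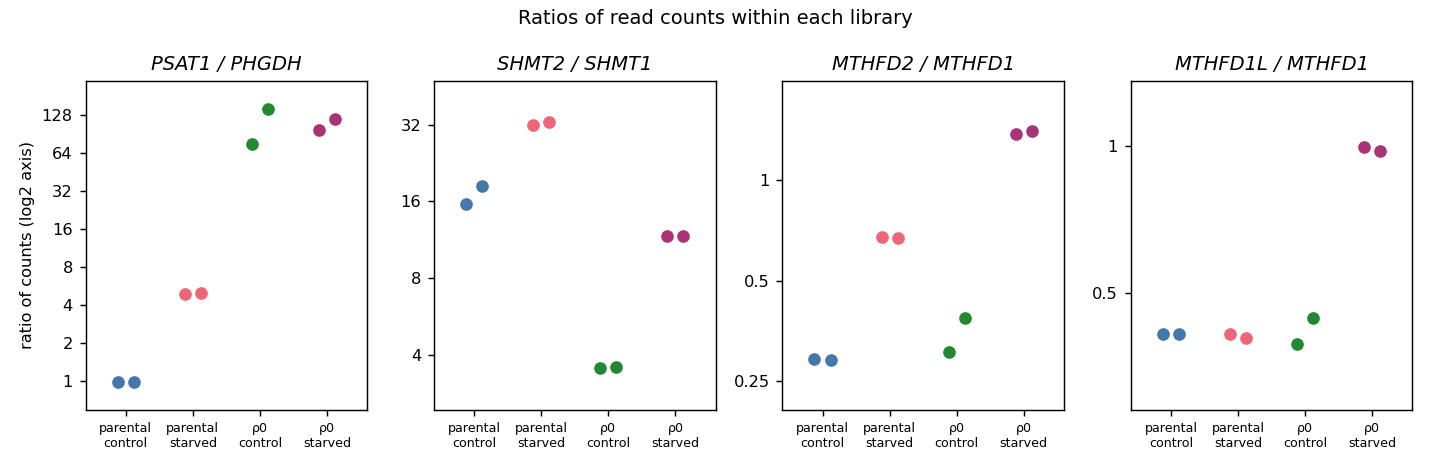
Ratios of read counts within each library (log2 axes) for 4 pairs of genes, with 1 point per library. PSAT1 against PHGDH was near 1 in parental control cells and at least 75.5 in ρ0 cells, and MTHFD2 against MTHFD1 was highest in starved ρ0 cells. Counts are not divided by transcript length, so a ratio of 1 does not mean equal levels per length.

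In the cytosolic branch, SHMT1, the cytosolic serine hydroxymethyltransferase, fell in both lines. It stood at 28.2 and 25.3 CPM in parental control and 10.2 and 9.85 CPM in parental starved libraries. In ρ0 libraries it stood at 38.7 and 51.4 CPM in control and 17.4 and 16.8 CPM in starved cells. Control and starved libraries did not overlap in either line. The fall was 2.66-fold in parental cells (log2 -1.41 ± 0.15, adjusted p = 1.39e-04) and 2.63-fold in ρ0 cells (-1.40 ± 0.15, adjusted p = 4.97e-04, edgeR), with a difference of 0.02 ± 0.21 (adjusted p = 0.968). SHMT1 was higher in ρ0 than in parental cells both in control (0.75 ± 0.14, adjusted p = 0.00275) and in starved cells (0.77 ± 0.15, adjusted p = 0.00292).

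MTHFD1, the trifunctional cytosolic enzyme that interconverts one-carbon folates, stood at 185 and 180 CPM in parental control and 227 and 240 CPM in parental starved libraries. In ρ0 cells it stood at 116 and 169 CPM in control and 93.7 and 95.9 CPM in starved libraries. The groups of each line did not overlap, and they lay in opposite orders. In parental cells the log2 change of 0.36 ± 0.16 did not pass (adjusted p = 0.0812), whereas in ρ0 cells MTHFD1 fell 1.5-fold (-0.59 ± 0.16, adjusted p = 0.0219, edgeR). That size hung on the ρ0 control libraries, with -0.84 without replicate 1 and -0.28 without replicate 2, both called. The difference between the responses was -0.95 ± 0.22 (adjusted p = 0.0141). The ρ0 call was lost without ρ0 starved replicate 1 (-0.55, adjusted p = 0.122) or 2 (-0.58, adjusted p = 0.107), and the difference lost its call without parental control replicate 1 or 2, parental starved replicate 2 or ρ0 starved replicate 1 (adjusted p from 0.0546 to 0.0622). With the parental libraries fitted on their own, the parental change of 0.39 passed (adjusted p = 2.39e-06), as it did in the joint fit without ρ0 control replicate 1 (0.35, adjusted p = 2.63e-07) or replicate 2 (0.39, adjusted p = 7.45e-08), and with the ρ0 libraries fitted on their own the ρ0 change of -0.57 did not (adjusted p = 0.108).

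In the mitochondrial branch, SHMT2 stood at 441 and 465 CPM in parental control and 325 and 322 CPM in parental starved libraries. In ρ0 cells it stood at 137 and 184 CPM in control and 203 and 196 CPM in starved libraries, so the ρ0 line held less SHMT2 message in both conditions. Starvation lowered it 1.40-fold in parental cells (log2 -0.49 ± 0.13, adjusted p = 0.0127). In ρ0 cells the change of 0.31 ± 0.13 did not pass (adjusted p = 0.0969), and it was 0.12 without ρ0 control replicate 1 (adjusted p = 0.0533) and 0.55 without replicate 2, where it passed (adjusted p = 3.8e-08, edgeR). The parental call was lost without parental control replicate 2 or either parental starved library (adjusted p from 0.0644 to 0.0724). The responses differed by 0.80 ± 0.19 (adjusted p = 0.0132), a call lost without parental control replicate 2, either parental starved library or ρ0 starved replicate 1 (adjusted p from 0.0547 to 0.0594). The ρ0 line held 2.82-fold less SHMT2 in control (-1.5 ± 0.13, adjusted p = 6.36e-05) and 1.62-fold less in starved cells (-0.70 ± 0.13, adjusted p = 0.00239). The ratio of SHMT2 to SHMT1 counts was 15.7 and 18.4 in parental control, 31.8 and 32.7 in parental starved, 3.54 and 3.59 in ρ0 control and 11.7 and 11.7 in ρ0 starved libraries, with no overlap between groups.

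MTHFD2, the mitochondrial dehydrogenase and cyclohydrolase that is low in most adult tissues and high in tumors, rose in both lines. Parental libraries gave 53.7 and 52.1 CPM in control and 153 and 161 CPM in starved cells. The ρ0 libraries gave 35.5 and 65.4 CPM in control and 129 and 135 CPM in starved cells. Starved libraries lay above control libraries throughout. The rise was 2.98-fold in parental cells (log2 1.57 ± 0.24, adjusted p = 8.39e-04) and 2.61-fold in ρ0 cells (1.38 ± 0.24, adjusted p = 0.00364, edgeR). The difference of -0.19 ± 0.34 did not pass (adjusted p = 0.683), and its sign followed the ρ0 control library used: it was -0.56 (adjusted p = 2.41e-06) without replicate 1 and 0.29 (adjusted p = 0.0042) without replicate 2. The ratio of MTHFD2 to MTHFD1 counts went from 0.291 and 0.289 to 0.676 and 0.672 in parental cells and from 0.306 and 0.387 to 1.37 and 1.40 in ρ0 cells.

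MTHFD1L, the mitochondrial synthetase that releases formate, whose upstream letters are printed above, moved less. It stood at 76.1 and 74.0 CPM in parental control and 93.5 and 97.1 CPM in parental starved libraries. In ρ0 cells it stood at 45.5 and 75.2 CPM in control and 93.4 and 93.6 CPM in starved libraries. The parental change of 0.34 ± 0.20 did not pass (adjusted p = 0.162), and the ρ0 change of 0.63 ± 0.20 did (1.55-fold, adjusted p = 0.0386, edgeR). The ρ0 change was 0.32 without ρ0 control replicate 1 and 1.05 without replicate 2, both called. The ρ0 call was lost on fitting the ρ0 libraries alone (0.65, adjusted p = 0.134) and on leaving out any 1 library outside the ρ0 control group (adjusted p from 0.0702 to 0.126), and the parental call was gained on fitting the parental libraries alone (0.38, adjusted p = 9.51e-06) or on leaving out ρ0 control replicate 1 (0.34, adjusted p = 1.45e-06) or replicate 2 (0.38, adjusted p = 4.12e-07). The difference between the responses was 0.29 ± 0.28 (adjusted p = 0.448), -0.025 (adjusted p = 0.794) without ρ0 control replicate 1 and 0.67 (adjusted p = 6.09e-07) without replicate 2. Relative to MTHFD1, MTHFD1L counts were 0.412 and 0.411 in parental control, 0.412 and 0.404 in parental starved, 0.392 and 0.444 in ρ0 control, and 0.997 and 0.976 in ρ0 starved libraries.

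ALDH1L2, the mitochondrial enzyme that oxidizes formyl-folate to carbon dioxide while making NADPH, was near the limit of detection. It passed the filter with 6 of 8 libraries over the cutoff of 0.343 CPM, and with at least 10 counts required in every library it was not tested and its 3 calls dropped out. Its counts were 13 and 7 in parental control, 42 and 47 in parental starved, 10 and 12 in ρ0 control, and 11 and 4 in ρ0 starved libraries, or 1.66 and 1.67 CPM in parental starved cells against at most 0.390 CPM in the other 6 libraries. The rise in parental cells was 5.14-fold (log2 2.36 ± 0.36, adjusted p = 7.7e-04), the ρ0 groups overlapped (-0.40 ± 0.45, adjusted p = 0.52, with -1.11 without ρ0 starved replicate 1 and 0.040 without replicate 2), and the difference of -2.76 ± 0.58 passed (adjusted p = 0.00886, edgeR), with -3.51 (adjusted p = 0.0171) without ρ0 starved replicate 1. ALDH1L2 overlaps C12orf45 on the opposite strand in the annotation, and whether the counting used strand is not given in the sources used here. C12orf45 stood at 21.5 and 22.4 CPM in parental starved libraries and between 7.32 and 14.0 CPM in the others, and its part in the ALDH1L2 values was not tested. MTHFD2 likewise overlaps SLC4A5, which stood at 9.41 and 10.3 CPM in parental control, 28.7 and 30.0 CPM in parental starved, 3.99 and 8.65 CPM in ρ0 control, and 11.6 and 12.7 CPM in ρ0 starved libraries, and its part was not tested. SHMT1, SHMT2 and MTHFD1 overlap SMCR8, NDUFA4L2 and ZBTB25 on the opposite strand in the same way, and the part of these genes was not tested either.

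Over the 4 mitochondrial folate genes together, CPM was 582 ± 14.2 (SD, n = 2) in parental control, 578 ± 6.30 in parental starved, 272 ± 75.5 in ρ0 control and 425 ± 1.20 in ρ0 starved cells. Over the 2 cytosolic genes it was 209 ± 5.28, 244 ± 9.11, 188 ± 46.7 and 112 ± 1.09 CPM in the same order. With the scaling used here, the parental mitochondrial sum thus differed by less than the spread between control libraries while its members moved. On starvation, group means went from 453 to 324 CPM for SHMT2 and from 52.9 to 157 CPM for MTHFD2. For MTHFD1L, which was not called, they went from 75.1 to 95.3 CPM, and for ALDH1L2 from 0.316 to 1.66 CPM. The near-equal sums depend on the scaling. Total counts alone gave parental log2 changes of -0.65 for SHMT2, 1.41 for MTHFD2 and 0.18 for MTHFD1L, against -0.49, 1.57 and 0.34.

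The lines were then compared directly. In control cells SHMT1 was higher in ρ0 than in parental cells and PHGDH and SHMT2 were lower, so 1 of 9 genes was called higher and 2 lower, against 30.5% and 31.8% of all tested genes. Past a log2 difference of 1 the calls were PHGDH and SHMT2, both lower, beside 13.6% of all genes higher and 17.3% lower. The median log2 difference was -0.07 over the 9 genes and -0.01 over all genes. With scaling by total counts alone 4 of the 9 genes were called, with MTHFD1 (-0.45) gained, beside 62% of all genes. Without ρ0 control replicate 1 5 of the 9 genes were called, beside 77.3% of all genes, and without replicate 2 7 were, beside 76.3%. PSAT1 was 0.54 ± 0.31 higher on the log2 scale with both (adjusted p = 0.167), 1.02 higher without replicate 1 and -0.11 without replicate 2. The PHGDH, SHMT1 and SHMT2 calls held without either library.

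In starved cells, where the ρ0 libraries were close to each other, PSAT1 and SHMT1 were higher in the ρ0 line and PHGDH, SHMT2, MTHFD1 and ALDH1L2 were lower. Of all tested genes 32.9% were higher and 33.5% lower. Past a log2 difference of 1, 1 of the 9 genes was higher (PSAT1, 1.03 ± 0.31, adjusted p = 0.02) and 3 were lower, beside 18.7% and 16.8% of all genes. MTHFD1 was 2.46-fold lower (-1.30 ± 0.16, adjusted p = 2.68e-04) and ALDH1L2 5.94-fold lower (-2.57 ± 0.38, adjusted p = 6.31e-04, edgeR), whereas PSPH, MTHFD2 and MTHFD1L did not pass. The ALDH1L2 difference was -3.27 (adjusted p = 0.00267) without ρ0 starved replicate 1, and MTHFD2 (-0.26 ± 0.24, adjusted p = 0.358) passed without ρ0 control replicate 1 (-0.25, adjusted p = 4.28e-05) or 2 (-0.23, adjusted p = 1.32e-04). With only the starved libraries fitted, 7 of the 9 genes were called, MTHFD2 among them, beside 85.8% of all genes tested there. The median was -0.26 over the 9 genes and -0.01 over all genes. The PSAT1 call was lost on leaving out any 1 of the 4 starved libraries (adjusted p from 0.0597 to 0.0938), with values between 1.0 and 1.08.

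**Figure D4:**
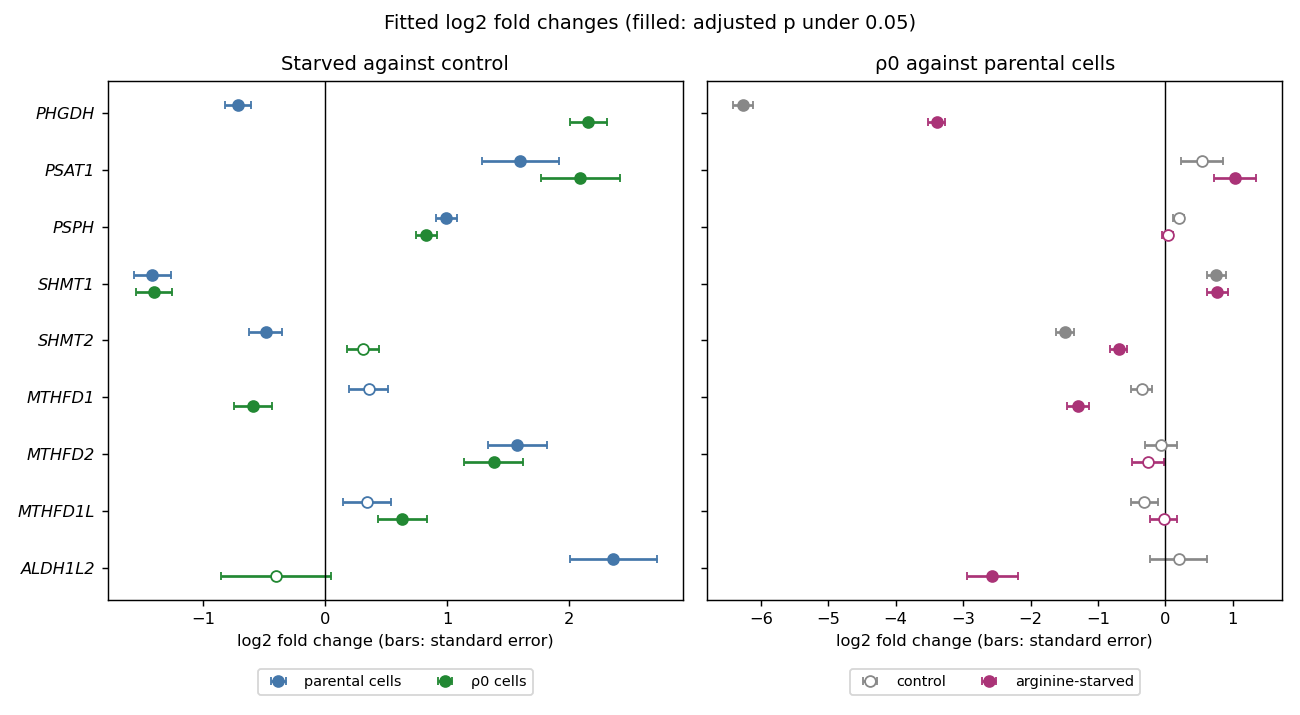
Fitted log2 fold changes with standard errors for starved against control cells in each line (left) and for ρ0 against parental cells in each condition (right). Filled points passed an adjusted p of 0.05 and open points did not. PHGDH, SHMT2, MTHFD1 and ALDH1L2 lay on opposite sides of 0 in the lines on the left, each with 1 open point but PHGDH, and PHGDH was the lowest point on the right.

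Around these enzymes, genes of other lists were counted beside the shares of all tested genes, which were 30.4% higher and 35.5% lower in parental starvation and 19.2% and 22.1% in ρ0 starvation. Of 24 tested genes for serine and glycine transport and use, 11 rose and 5 fell in parental cells, and 9 rose and 6 fell in ρ0 cells, with medians of 0.33 and 0.38 beside -0.07 and -0.02 over all tested genes. SLC1A4 and SLC1A5, neutral amino acid transporters that carry serine, rose by 2.15 ± 0.17 and 2.18 ± 0.12 on the log2 scale in parental cells and by 2.27 ± 0.16 and 1.77 ± 0.12 in ρ0 cells (adjusted p at most 1.6e-04, edgeR). SLC38A2, another neutral amino acid transporter, rose by 1.19 ± 0.09 in parental cells (adjusted p = 3.23e-05) and by 1.84 ± 0.09 in ρ0 cells (adjusted p = 4.65e-05). SARS2, the mitochondrial seryl-tRNA synthetase, went from 35.9 and 39.5 CPM to 1.78 and 1.77 CPM in parental cells and from 20.8 and 22.2 CPM to 5.10 and 4.68 CPM in ρ0 cells. AMT, a subunit of the glycine cleavage system, fell in parental cells from 4.65 and 5.18 CPM to 0.515 and 0.851 CPM, while in ρ0 cells it went from 4.37 and 2.06 CPM to 7.33 and 7.08 CPM. SFXN1, a mitochondrial serine carrier, did not pass in parental cells (-0.11 ± 0.13, adjusted p = 0.473) and fell in ρ0 cells (-0.75 ± 0.13, adjusted p = 0.00374, edgeR). SFXN2, of the same family, did not pass in parental cells (-0.70 ± 0.29, adjusted p = 0.0651) and fell in ρ0 cells (-1.66 ± 0.30, adjusted p = 0.00392). The difference between the SFXN2 responses did not pass (-0.96 ± 0.41, adjusted p = 0.0991). SFXN3 fell in both lines, by -1.84 ± 0.14 in parental cells (adjusted p = 3.48e-05) and -0.50 ± 0.14 in ρ0 cells (adjusted p = 0.0224, edgeR).

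Of 17 other folate genes tested, 3 rose and 7 fell in parental cells (30.4% and 35.5% of all genes), and 2 rose and 8 fell in ρ0 cells (19.2% and 22.1% of all genes), with medians of -0.27 and -0.36. SLC25A32, a mitochondrial folate carrier, was among those that rose, from 76.3 and 72.7 to 256 and 269 CPM in parental cells (log2 1.82 ± 0.14, adjusted p = 3.53e-05) and from 42.7 and 58.5 to 92.5 and 88.0 CPM in ρ0 cells (0.83 ± 0.14, adjusted p = 0.00309, edgeR). TYMS, the thymidylate synthase that consumes one-carbon units, stood at 32.3 and 34.9 CPM in parental control and 35.1 and 34.5 CPM in parental starved libraries, and went from 32.8 and 48.2 to 11.02 and 11.06 CPM in ρ0 cells (-1.88 ± 0.18, adjusted p = 3.45e-04). MTHFD2L, the paralog of MTHFD2, did not pass in either line (0.29 ± 0.11 and 0.33 ± 0.11, adjusted p = 0.0513 and 0.0533). The folate receptor gene FOLR1 had at most 4 counts in any parental library and 242 and 88 in ρ0 control libraries, falling to 34 and 34 in starved ones (-2.13 ± 0.49, adjusted p = 0.0116). ALDH1L1, the cytosolic counterpart of ALDH1L2, likewise had at most 4 counts in parental libraries, against 58 and 90 in ρ0 control and 15 and 23 in ρ0 starved libraries.

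In the methionine cycle and transsulfuration, 2 of 10 tested genes rose and 5 fell in parental cells, and 4 rose and 1 fell in ρ0 cells, with medians of -0.27 and 0.19, beside the same shares of all genes (30.4% and 35.5%, 19.2% and 22.1%). CTH, the cystathionine lyase that makes cysteine, had the largest rise in both lines among pathway genes that passed the test with a mean of at least 1 CPM. It went from 13.2 and 12.6 to 112 and 115 CPM in parental cells (log2 3.14 ± 0.14, adjusted p = 7.46e-06) and from 9.68 and 12.9 to 92.4 and 91.0 CPM in ρ0 cells (3.02 ± 0.14, adjusted p = 3.93e-05, edgeR). MAT1A, a methionine adenosyltransferase, had 148 and 95 counts in parental control and 4 and 1 in parental starved libraries, and at most 1 count in any ρ0 library. It passed the expression filter only through the parental control libraries, where it was high. Its fall, among the 5 counted above, is therefore given in counts and not as a test.

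**Figure D5:**
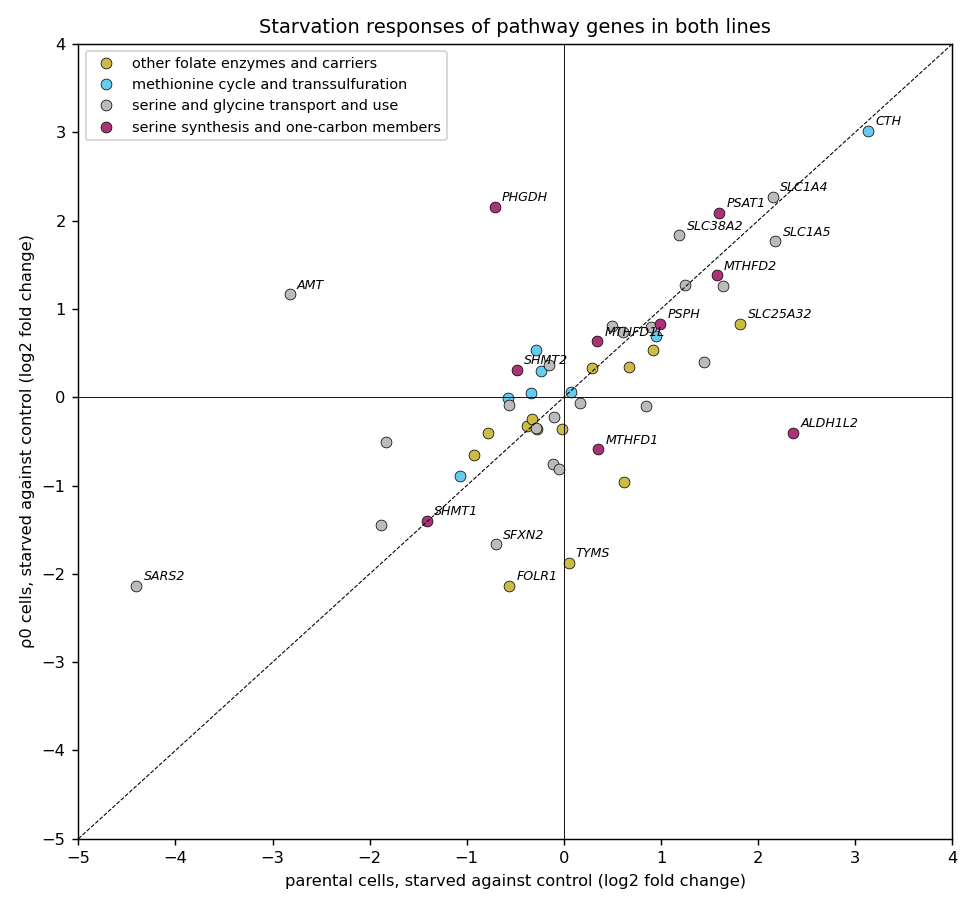
Log2 fold change on starvation in parental cells (x axis) against ρ0 cells (y axis) for the 9 genes and for tested genes reported here from 3 pathway lists with a mean of at least 1 CPM, without MAT1A, which had almost no counts in ρ0 cells. CTH, SLC1A4, PSAT1 and MTHFD2 lay at the upper right near the dashed line of equal change, and PHGDH, AMT, ALDH1L2 and TYMS lay far from it.

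Stress-response reference genes moved beside these changes. Of 14 tested, 11 rose in parental cells (30.4% of all genes) and 13 in ρ0 cells (19.2%), with medians of 1.92 and 1.78, and the other 3 and 1 did not pass. ATF4 itself went from 159 and 163 to 543 and 537 CPM in parental cells (log2 1.75 ± 0.15, adjusted p = 4.68e-05) and from 144 and 201 to 322 and 319 CPM in ρ0 cells (0.89 ± 0.14, adjusted p = 0.00254, edgeR). ASNS, the asparagine synthetase and an ATF4 target, rose by 2.37 ± 0.28 and 2.97 ± 0.28 in the lines (adjusted p = 2.07e-04 and 3.42e-04), CHAC1 by 2.16 ± 0.32 and 2.47 ± 0.32 (adjusted p = 6.98e-04 and 0.00112), DDIT3 by 1.27 ± 0.19 and 1.86 ± 0.19 (adjusted p = 8.25e-04 and 4.5e-04) and SESN2 by 0.82 ± 0.30 and 1.20 ± 0.29 (adjusted p = 0.0414 and 0.0151). TRIB3 stood at 40.4 and 43.9 CPM in parental control and 40.7 and 38.4 CPM in parental starved libraries, and rose in ρ0 cells (1.81 ± 0.30, adjusted p = 0.00284).

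MYC, a transcription factor known to act on several one-carbon genes, rose in both lines (2.41 ± 0.15 and 2.0 ± 0.15, adjusted p = 1.71e-05 and 1.82e-04) and was lower in ρ0 than in parental control cells (-1.89 ± 0.15, adjusted p = 3.86e-05, edgeR). NFE2L2, the gene of the antioxidant regulator NRF2, rose by 0.48 ± 0.12 and 0.47 ± 0.12 (adjusted p = 0.00809 and 0.0157). ASS1, the arginine synthesis enzyme, was at most 0.300 CPM in parental libraries and stood at 6.35 and 11.5 CPM in ρ0 control and 23.1 and 22.3 CPM in ρ0 starved libraries.

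Proliferation genes moved in the opposite direction. Of 17 tested, 11 fell in parental cells (35.5% of all genes) while 6 did not pass, and all 17 fell in ρ0 cells (22.1%), with medians of -1.33 and -1.45. Their summed CPM was 3868 and 3819 in parental control, 1960 and 1946 in parental starved, 4505 and 5040 in ρ0 control, and 1629 and 1632 in ρ0 starved libraries. The falls of SHMT1 in both lines and of MTHFD1 and TYMS in ρ0 cells accompanied these falls, and the part of proliferation in them was not tested.

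The genes with the profiles most like PSAT1 over the 8 libraries, by root mean square difference of centred log2 CPM among 9950 genes with a mean of at least 10 CPM, were CEBPG (0.26), VLDLR (0.29), SLC1A4 (0.30), DDIT3 (0.36) and SLC1A5 (0.36), beside a standard deviation of 1.15 for PSAT1 itself. For MTHFD2 they were C6orf48 (0.11), CMTR2 (0.14), NR1D2 (0.14), ZC3H8 (0.17) and DHX33 (0.17), beside a standard deviation of 0.85. These are descriptions across libraries that share 4 groups, with no test.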

How the data were processed

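RNA-seq was analysed for 8 libraries in 4 groups of 2. The authors deposited a table of unnormalized read counts, with genes as symbols. Per the labels, RNA was extracted with Trizol and libraries followed Illumina protocols. The submitters' processing notes name Bowtie, Partek and hg19, and the annotation and use of strand are not given in the sources used here. The tests used edgeR 4.0.16 and limma 3.58.1 in R 4.3.3, and DESeq2 1.42.0 as an alternative. The filterByExpr function (minimum count 10) kept 15262 of 23393 genes, and 20083 had a count. Libraries were scaled by TMM, and a quasi-likelihood model with a mean for each group took in all 8 libraries, leaving 4 residual degrees of freedom (prior 3.40) and a biological coefficient of variation of 12.4%. P-values were adjusted over all tested genes by the Benjamini-Hochberg method and called under 0.05, and a further count used a log2 change of 1. Each standard error was derived from the F statistic (log2 fold change over the root of F). CPM use TMM-scaled totals, in which 1 read was worth between 0.0300 and 0.0414 CPM. Transcript lengths came from GENCODE 29 and promoter windows from RefSeq. Scripts were tested on simulated data.

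The 9 genes and the other lists were chosen with earlier results of these data known. Named genes were these 9, at most 4 rises and 4 falls per comparison among called genes of the pathway lists with a mean of at least 1 CPM, genes that pair with a member, the 5 nearest profiles of PSAT1 and MTHFD2, and reference genes. Overlapping genes and markers were named outside that rule, and some genes that fall under it are counted in their lists but not reported here. Alternatives were other scalings and filters, DESeq2, limma-voom, a replicate block, fits to the compared groups alone, a fold threshold, median transcript length and leaving out each library.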

Additional observations from a re-analysis of the deposited data

Results flagged for a closer look

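The starvation responses of 4 of the 9 genes differed between the lines by edgeR's interaction test (ρ0 minus parental, log2), a share near that of all tested genes, of which 21.6% were positive and 18.8% negative. The differences were 2.87 for PHGDH, which fell in parental and rose in ρ0 cells, 0.80 for SHMT2, -0.95 for MTHFD1 and -2.76 for ALDH1L2, each with 2 libraries per group. Leaving out 1 library ended the SHMT2 and MTHFD1 calls in 4 cases each (adjusted p from 0.0547 to 0.0594 for SHMT2 and from 0.0546 to 0.0622 for MTHFD1). The ALDH1L2 difference rested on at most 47 reads per library and was -3.51 without ρ0 starved replicate 1.

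Of 51 tested genes in 3 pathway lists, 12 were positive and 7 negative in the same test, beside 21.6% and 18.8% of all tested genes. The 12 include MAT1A, which passed the expression filter only through parental control libraries and had at most 1 count in any ρ0 library. Genes with the largest differences at a mean of at least 1 CPM are given without MAT1A. The test was positive for AMT (3.99 ± 0.52, adjusted p = 0.00153), SARS2 (2.27 ± 0.17, adjusted p = 2.58e-04) and SFXN3, of the same family as SFXN1 (1.33 ± 0.20, adjusted p = 0.00233). It was negative for TYMS (-1.92 ± 0.25, adjusted p = 0.0014), MTHFS, which recycles formyl-folate (-1.59 ± 0.40, adjusted p = 0.0174), SDSL, a serine dehydratase-like gene (-1.04 ± 0.21, adjusted p = 0.00709), and SLC25A32 (-0.98 ± 0.20, adjusted p = 0.00726). No explanation of these differences was tested.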

How the results depend on the processing

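Counts of calls among the 9 genes in the 5 comparisons were 7, 7, 4, 3 and 6, in the order parental starvation, ρ0 starvation, their difference, control and starved lines. With a log2 change above 1 or below -1 required as well, they were 4, 4 and 2 in the first 3, and all-gene counts were 5320, 1894, 3037, 4718 and 5415. With only the compared libraries fitted, 3127 genes were called in ρ0 starvation against 6308. Leaving out 1 library gave 6 to 9, 5 to 8, 2 to 8, 3 to 7 and 5 to 7 of the 9 genes, and 8048 to 12480, 3169 to 9784, 3513 to 10277, 7456 to 12043 and 8107 to 12504 of all genes, the highest all-gene counts without a ρ0 control library. With at least 10 counts in every library ALDH1L2 was not tested, and 6, 7, 3, 3 and 5 of the 9 genes were called. A group with 1 library left was assumed to vary like the others. Reversals came mostly with 1 library left out, where ALDH1L2 in ρ0 starvation ranged from -1.11 to 0.040 (the latter without ρ0 starved replicate 2) and differences between the responses ranged from -0.16 to 0.21 for SHMT1 (without ρ0 control 1 and 2, with -0.06, -0.0081 and -0.032 without parental control 1, parental starved 2 and ρ0 starved 1), from -0.56 to 0.29 for MTHFD2 and from -0.025 to 0.67 for MTHFD1L (without ρ0 control 1 and 2). Between control lines the ranges were -0.11 to 1.02 for PSAT1 (without ρ0 control 2 and 1), -0.52 to 0.31 for MTHFD2 and -0.67 to 0.0021 for MTHFD1L (likewise), and -0.091 to 0.58 for ALDH1L2 (without parental control 2 and 1). Between starved lines MTHFD1L (-0.03) reversed to 0.042 (upper quartile), 0.0092 (no filter), 0.0033 (compared groups alone) and 0.00086, 0.00045 and 0.0025 (without ρ0 control 2, ρ0 starved 1 and ρ0 starved 2), with a lowest value of -0.052 without parental starved 1. The causes were not tested. SHMT2 lost its parental call without parental control 2 or either parental starved library (adjusted p from 0.0644 to 0.0724), and MTHFD1L lost its ρ0 call with total counts (0.0664). Total counts moved the median of all genes in parental starvation to -0.23 from -0.07. Per length, MTHFD1 moved from places 3, 4, 3 and 6 in the 4 groups to 2, 2, 1 and 3 with the median transcript. Same-numbered libraries did not deviate together (correlations between -0.16 and 0.09 over 9951 genes), so numbers were not taken to pair them, and with the number as a replicate block the 9 genes kept 7, 7, 4, 3 and 6 calls, with 9896, 5915, 5731, 9298 and 9990 genes called in all. Swapping the parental control numbers in the block, chosen after seeing the data, gave 7 and 9873 calls in parental starvation. Of 755 values of the 9 genes under 18 settings, 688 were log2 changes that kept their direction and side of the threshold. The 755 include the 4 places of MTHFD1 per length, which moved and have neither. ALDH1L2 had at most 47 reads in any library, and the part of depth in its shifts was not tested.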
